A study of Homo sapiens with 18 samples.

Results

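The insulin-like growth factors IGF1 and IGF2, the receptor IGF2R and the binding proteins IGFBP1 to IGFBP7 were followed through 18 scans of microarrays that had been washed and stained to different extents. The members are all probe sets of the array whose only gene symbol in the platform annotation is 1 of these 10 genes, and each was treated as a measurement of its own. They numbered 24 of 54675 probe sets on the array and covered 9 of the 10 genes. IGF1 had 5 of them, IGF2R 3, IGFBP1 2, IGFBP2 1, IGFBP3 2, IGFBP4 1, IGFBP5 6, IGFBP6 1 and IGFBP7 3. IGF2 had 0, because its 3 probe sets are annotated to IGF2 together with the read-through gene INS-IGF2. Their signals lay between 3.90 and 143, and none of the 3 exceeded the reference of dark probe sets defined further on in any scan.

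The RNA came from untreated cells of FTC-133, an established human line of follicular thyroid carcinoma. All 3 HG-U133 Plus 2.0 arrays, called A, B and C, carried RNA of the same preparation, so every difference between scans is technical and none is a difference between cells. Array A was stained after a low stringent wash only and was scanned after 0, 2, 7 and 17 stringent cycles, at lower salt and higher temperature, as scans A1 to A4. Array B had 2 stringent cycles ahead of staining, so B1 to B4 had seen 2, 4, 9 and 19 cycles altogether. Only array C followed the usual order of steps, in which 6 stringent cycles precede staining, and its single scan is C1. All arrays were then stained again and processed by the same scheme in a second series, which gave A5 to A8 after 17, 19, 24 and 34 cycles in total, B5 to B8 after 21, 23, 28 and 38, and C2 after 12. The first scan after a staining is taken as 0 additional cycles, and the next ones as 2, 7 and 17. The study asked how the measured signals change as a function of washing cycles and of a second labelling.

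The ligands of this axis are secreted peptides that resemble insulin and signal through the tyrosine kinase receptor IGF1R to promote growth and survival. IGF2R is the cation-independent mannose 6-phosphate receptor, which carries lysosomal enzymes and takes up IGF2 for degradation without a kinase of its own. The binding proteins IGFBP1 to IGFBP6 hold the ligands with high affinity and control their access to the receptor, whereas IGFBP7 binds them weakly. In the thyroid, IGF1 acts together with thyrotropin on the growth of follicular cells. According to the RefSeq gene table IGFBP2 and IGFBP5 are neighbours on chromosome 2, and IGFBP1 and IGFBP3 on chromosome 7, with 0 protein-coding genes between the genes of either pair.

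The values are MAS5 signals, 1 per probe set and scan, on a linear scale. After trimming 2% of probe sets at either end, every scan had a mean between 250.02 and 250.06, so a loss shared by all probe sets cannot be seen and all changes are relative to the rest of the array. With no detection calls used, 107 probe sets of olfactory receptors, which are receptors of the nasal epithelium, served as dark probe sets. Their 95th percentile was 200.2 to 326 on array A, 86.4 to 131 on array B and 78.7 to 84.5 on array C. Each marker gene was read by its brightest probe set on C1, 1 of 8 for PAX8, so the counts hold for that probe set only. Among the thyroid markers the transcription factors PAX8 and NKX2-1 exceeded the 95th percentile of the dark probe sets in 18 of 18 scans. HHEX did so in 11, the iodide transporter SLC5A5 in 5 and thyroglobulin (TG) in 1. The thyrotropin receptor TSHR and FOXE1 exceeded it in 0 scans. Of the epithelial markers the keratins KRT8 and KRT18 did so in all 18, EPCAM in 12 and E-cadherin (CDH1) in 0. Of the markers of other cell types COL3A1 did so in 18 scans, PECAM1 in 17, COL1A1 in 15 and HBB in 12, and PTPRC, CD3E, LYZ, ALB and DCN in 0. VWF, LUM and APOA1 exceeded it in 5 scans each, and CDH5 and SERPINA1 in 1 each. The brightness of a probe set also depends on the affinity of its probes, so no order of transcript levels between genes is read from it.

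Of the axis, 4 genes had a probe set above the dark reference in all 18 scans, namely IGF2R, IGFBP4, IGFBP5 and IGFBP6, with 1 probe set each. These 4 probe sets are given with all their values, and they were the only members above it in at least 15 scans. The 3 next ones exceeded it in 14 scans (IGFBP3, 210095_s_at) and in 13 (IGF2R, 201392_s_at, and IGFBP5, 203424_s_at). Each of these 3 exceeded it in all scans of arrays B and C, and in 3 or 4 of the 8 scans of array A. A further 8 members exceeded it in 1 to 5 scans and 9 in no scan, among them both probe sets of IGFBP1 and the probe set of IGFBP2.

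IGF2R (201393_s_at) had scaled signals of 929, 831, 982, 1034, 772, 753, 931 and 920.2 in scans A1 to A8. Array B gave 958, 945, 781, 619, 967, 799, 711 and 785 in B1 to B8. Array C gave 1169 in C1 and 894 in C2. The highest value of IGF2R was thus that of C1 and the lowest that of B4, and arrays A and B overlapped. Between the first and the last scan of the first series the signal was higher on array A and lower on array B, and the same held in the second series.

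IGFBP4 (201508_at), a binding protein that the protease PAPPA cleaves, gave 396, 491, 603, 662, 335, 406, 435 and 407 in A1 to A8. On array B it had 706, 664, 648, 592, 521, 568, 624 and 564 in B1 to B8. The values of array C were 873 in C1 and 710.4 in C2. The lowest scans of IGFBP4 were A5 and A1, each the first after a staining of the array that had no stringent wash before the first staining, and the highest was C1.

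IGFBP5 (211959_at), a binding protein that also attaches to extracellular matrix, gave 1147, 770.1, 678, 629, 972, 753, 609 and 577 in A1 to A8. For array B the values were 769, 549, 529, 496, 740.4, 684, 483 and 494 in B1 to B8. Array C had 579.8 in C1 and 746 in C2. In each of the 4 runs of scans the first one after staining was the highest, and both first scans of array A lay above all other scans.

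IGFBP6 (203851_at), which prefers IGF2 to IGF1 as its ligand, gave 1100.4, 1441, 1609, 1607, 1347, 1317, 1441 and 1472 in A1 to A8. Scans B1 to B8 gave 1811, 2016, 2004, 2305, 2065, 2094, 2055 and 2091. Array C gave 2531 in C1 and 1480.2 in C2. All 8 scans of array A lay below all 8 of array B, C1 lay above both arrays and C2 within the range of array A. Of all probe sets 2.35% had every scan of A below every scan of B, and IGFBP6 was 1 of 24 members to do so. With 1 array of each kind this difference has no test, and the wash before staining cannot be told apart from the array.

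**Figure D1:**
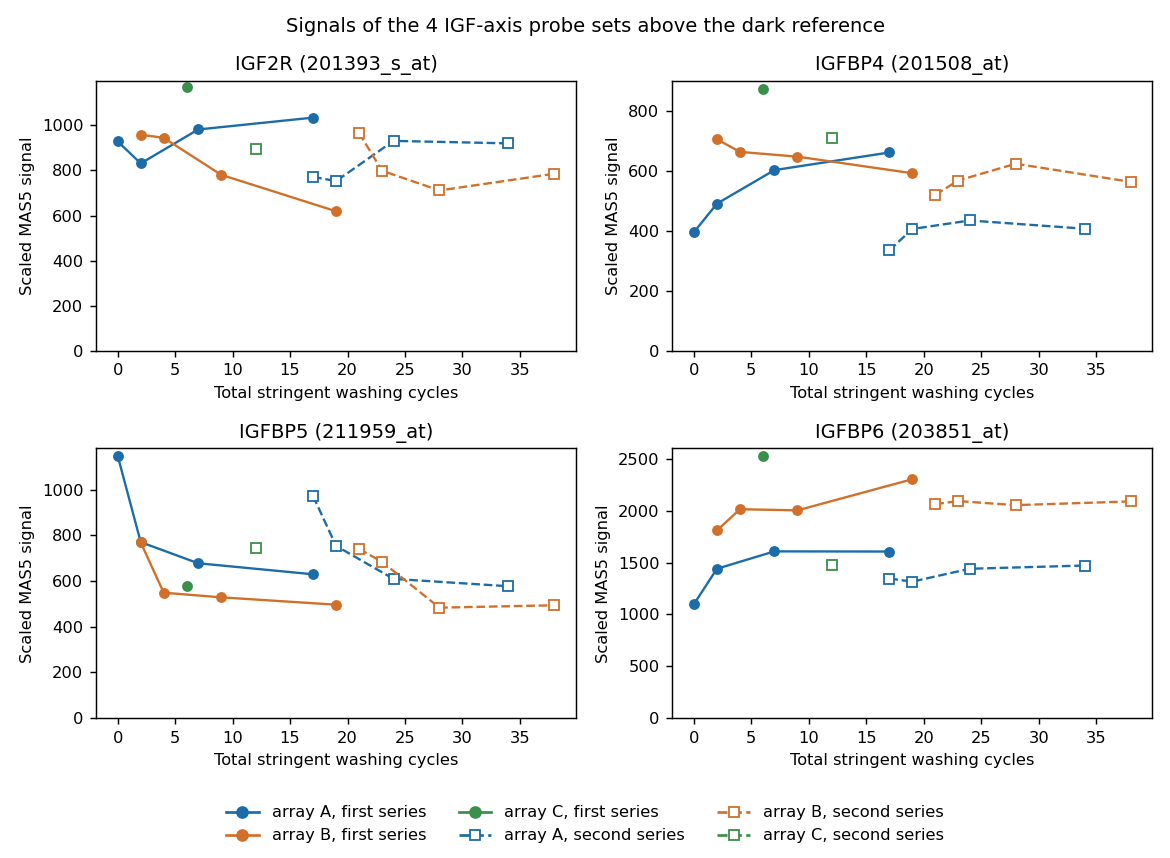
Scaled MAS5 signal (linear axes from 0) of the 4 probe sets above the dark reference in all scans, against the total number of stringent washing cycles. Points are single scans, colours are arrays A, B and C, filled points with full lines are the first series and open points with broken lines the second. IGFBP5 starts high after each staining (1147 in A1 and 972 in A5), whereas IGFBP6 starts low on array A (1100.4 in A1).

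Grouped by series and washing step, the 18 scans fall into 8 conditions of 2 or 3 scans each. Only the conditions with 0 additional cycles include array C. Each condition pools arrays with different numbers of stringent cycles before the first staining, so its SD includes the difference between arrays. The highest condition mean of IGFBP5 was 832 ± 289 (SD, n = 3, first series, 0 additional cycles) and the lowest 535 ± 58.9 (SD, n = 2, second series, 17 additional cycles). For IGFBP6 the range was from 1956 ± 493 (SD, n = 2) to 1631 ± 382 (SD, n = 3). The ratio of the highest to the lowest mean was 1.55 for IGFBP5, 1.36 for IGFBP4, 1.31 for IGF2R and 1.20 for IGFBP6. The highest means of IGFBP4 and IGF2R included C1, the highest scan of each, and the lowest mean of IGFBP6 included C2. These ratios therefore depend on which arrays a condition holds as well as on the condition. When the 8 conditions were ordered by their mean, 0 of the 7 pairs of neighbours had separate ranges, for each of the 4 probe sets. Farther apart in that order, IGFBP5 had separate ranges after 0 (740.4 to 972) and 17 additional cycles (494 to 577) of the second series. In the first series the ranges of the same steps overlapped, with 580 to 1147 after 0 and 496 to 629 after 17. The share of all probe sets with such a separation was not counted, and the pair was picked after the values were seen.

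The remaining members of the axis were dimmer, and their signals were plotted for all 18 scans by array. For the ligand IGF1 the 5 probe sets exceeded the dark reference in 0, 0, 0, 1 and 1 scans. On its probe set 241072_s_at array A gave 381, 150, 102, 85.0, 210.1, 130, 135 and 157, whereas array B stayed between 3.01 and 13.1 and array C gave 5.21 and 6.67. The mean log2 difference of array A from array B was 4.43, chosen here after the values were seen. IGF1 209540_at likewise had all scans of array A (35.8 to 105) above those of arrays B (2.52 to 26.5) and C (4.65 and 21.5). These were 2 of the 24 members with array A above both other arrays in every scan, beside 7.93% of all probe sets, a share close to that of the members. For array A below both other arrays the count was 0, beside 1.83%.

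IGFBP3, the main carrier of the ligands in blood, had signals of 136 to 361 on array A, 147 to 281 on array B and 346 and 367 on array C for 210095_s_at. Its other probe set, 212143_s_at, ranged from 35.5 to 163 over all scans. The first of them was higher in 17 of 18 scans, by a median of 1.59 on the log2 scale. IGF2R 201392_s_at lay between 112 and 396 and was below 201393_s_at in 18 of 18 scans, by a median log2 ratio of -2.02. Within IGFBP5 the probe set 211959_at exceeded the other 5 in all 18 scans. Among these 5, 203424_s_at ranged from 135 to 318, 203425_s_at from 38.5 to 263 and 203426_s_at from 60.0 to 175.

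IGFBP5 1555997_s_at had the widest range within the gene, from 299 in A1 to 4.79 in A7. Its values in A1 to A4 were 299, 23.2, 9.41 and 5.50, and those in B1 to B4 were 43.9, 34.8, 70.3 and 69.0. It exceeded the dark reference in 0 scans. The probe sets of IGFBP1, a liver protein under the control of insulin, ranged from 3.33 to 79.8 (205302_at) and from 2.04 to 110.2 (237989_at). The probe set of IGFBP2 ranged from 7.64 to 62.7. For IGFBP7 the ranges were 9.88 to 90.1 (201162_at), 14.3 to 132.6 (201163_s_at) and 2.37 to 83.1 (213910_at). These values were within the range of the dark probe sets in most or all scans, so their changes describe probe sets without a signal that stands out.

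**Figure D2:**
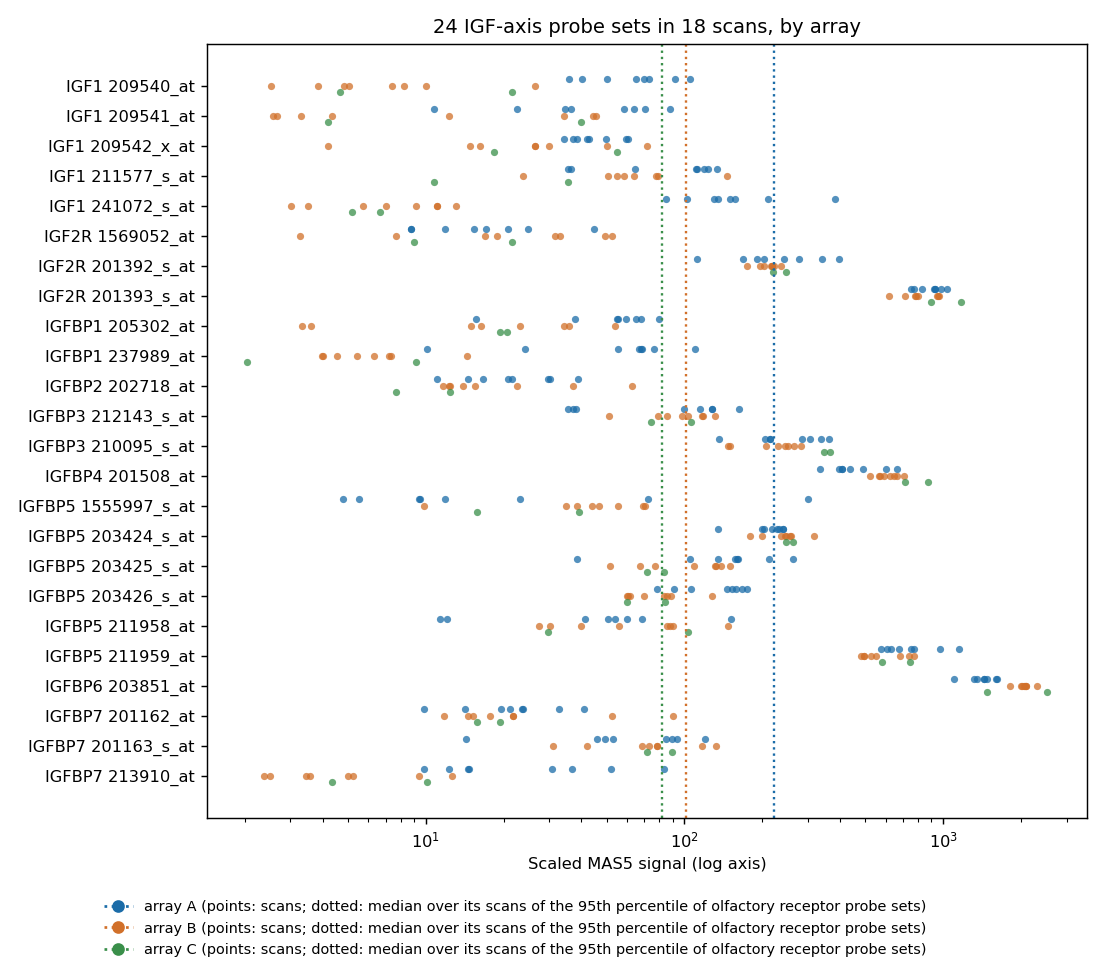
Scaled MAS5 signal (log axis) of all 24 probe sets in the 18 scans, 1 row per probe set and 1 point per scan, coloured by array. Dotted lines give, for each array, the median over its scans of the 95th percentile of the olfactory receptor probe sets. Only the 4 probe sets of IGF2R, IGFBP4, IGFBP5 and IGFBP6 lie above it in all scans, and IGF1 241072_s_at shows array A (85.0 to 381) apart from array B (3.01 to 13.1).

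The effect of washing was taken as the log2 ratio of the scan after 17 additional cycles to that after 0, separately for the 4 runs of arrays A and B. The median over all probe sets was -0.61 for array A and -0.27 for array B in the first series, and -0.27 and -0.21 in the second. The members had medians of -0.36, -0.44, -0.27 and -0.08 in these runs. Of the 24 members 14, 9, 12 and 15 lay above the median of all probe sets. The axis as a list was thus on neither side of the array throughout.

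IGFBP5 211959_at had washing changes of -0.87 and -0.63 on arrays A and B in the first series and -0.75 and -0.58 in the second, in log2 units. Minus the median over all probe sets these were -0.25, -0.36, -0.48 and -0.37. It was the only 1 of 24 members below this median in all 4 runs, beside 11.6% of all probe sets, so the count of members is below the background. Compared with the median of probe sets of like brightness, those in the same decile of the signals of scan C1, its change differed by -0.88, -0.32, -0.69 and -0.39 log2 units. The mean of both arrays in the first series was -0.60 by this measure, and -1.07 with deciles taken from scan A1. Scan A1 is itself part of the ratio of array A, whereas C1 is part of none of these ratios. When the runs were started at 2 instead of 0 additional cycles, the relative values were -0.06, 0.02, -0.33 and -0.34, so in the first series its difference from the median lay in the first 2 cycles.

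IGFBP6 had washing changes of 0.55 and 0.35 in the first series and 0.13 and 0.02 in the second. It was the only 1 of 24 members with a higher scaled signal after washing in all 4 runs, beside 7.39% of all probe sets. Relative to the median of all its changes were 1.16, 0.62, 0.40 and 0.23, and each of the 12 single steps was above the median as well. With IGFBP4 it was 1 of 2 members above this median in all 4 runs. The shares of all probe sets above it in all runs or in all steps are not given here, so neither is read as particular to IGFBP6. Beside the probe sets of its own decile, which also gained in the scaled signal, the differences were only -0.09, 0.15, -0.12 and -0.12.

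IGFBP4 changed by 0.74 on array A and -0.25 on array B in the first series, and by 0.28 and 0.11 in the second, which was 1.35, 0.02, 0.55 and 0.32 above the median of all. For IGF2R 201393_s_at the values were 0.16 and -0.63, and then 0.25 and -0.30, so both series showed opposite directions on the arrays. Beside probe sets of like brightness IGF2R was at -0.49 and -0.83 in the first series and at 0.00 and -0.44 in the second. Lower scaled signals in 4 of 4 runs were found for 3 members, beside 24.8% of all probe sets. Besides IGFBP5 211959_at these were IGF1 209540_at, with -0.37, -0.71, -1.39 and -1.39, and IGFBP7 201163_s_at, with -0.36, -1.91, -0.96 and -0.76, which exceeded the dark reference in 0 and 3 scans.

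**Figure D3:**
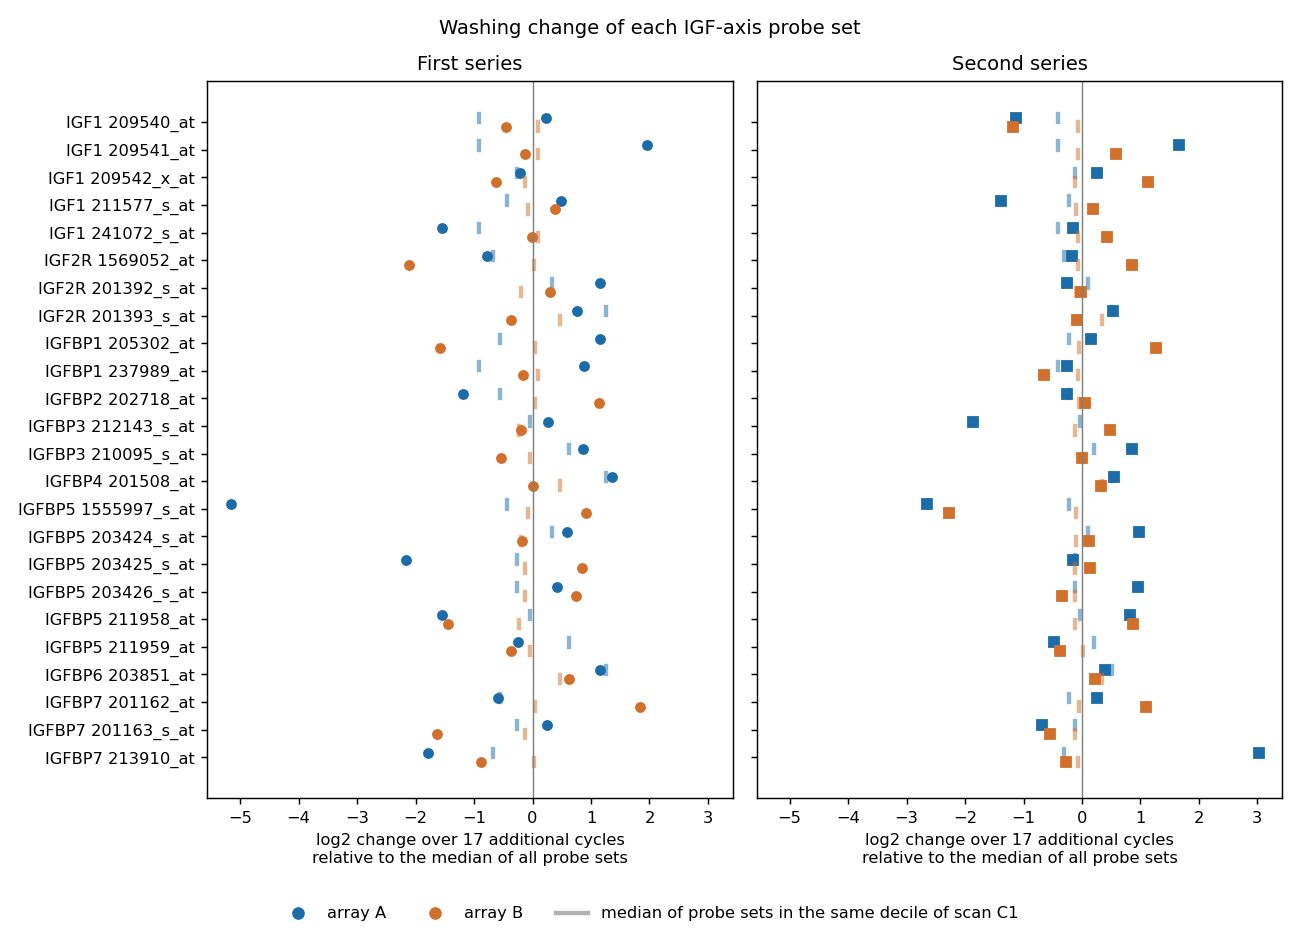
Log2 change of the scaled signal over 17 additional cycles minus the median change of all probe sets, for each of the 24 probe sets. The left panel is the first and the right panel the second series, colours are arrays A and B, and short bars give the median of probe sets in the same decile of scan C1. IGFBP5 211959_at lies below 0 in all 4 runs (-0.25 to -0.48) and IGFBP6 above 0 (0.23 to 1.16), whereas dim probe sets such as IGFBP5 1555997_s_at scatter widely.

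In the test of washing, limma over 8 scans with the washing step as factor and blocking by array, 0 members passed the adjusted threshold in the first series, beside 0.0% of all probe sets in either direction. In the second series the count was also 0, beside 0.0%. At an unadjusted p under 0.05 the first series had 2 members lower and 0 higher, beside 13.9% and 3.5% of all probe sets. The second series had 3 lower and 1 higher, beside 11.6% and 2.55%. These shares of members do not exceed the background by more than a single probe set.

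For IGFBP5 211959_at the fitted log2 change was -0.75 (SE 0.27, limma adjusted p = 0.271) in the first series and -0.67 (SE 0.18, limma adjusted p = 0.329) in the second. With a variance trend and robust moderation the same changes had limma adjusted p = 0.0426 and 0.0181, and this probe set was then the 1 member called in each series, beside 1.21% and 0.448% of all probe sets called lower. In the same fits 0 members were called higher, beside 3.57% and 2.38%. Over all 7 alternatives the adjusted p was 0.0426 to 0.870 in the first series and 0.0181 to 1.0 in the second. These tests are against 0, whereas the median fitted change of all probe sets was -0.45 in the first series and -0.24 in the second. Centred on the median, IGFBP5 211959_at had -0.29 (limma adjusted p = 0.752) in the first series. In the second it had -0.37 (limma adjusted p = 0.488). IGFBP6 changed by 0.45 (SE 0.27, limma adjusted p = 0.439) in the first series and by 0.07 (SE 0.18, adjusted p = 0.858) in the second. IGFBP4 had 0.24 (SE 0.35, limma adjusted p = 0.733) and 0.20 (SE 0.18, adjusted p = 0.610). IGF2R 201393_s_at had -0.24 (SE 0.35, limma adjusted p = 0.736) and -0.02 (SE 0.25, adjusted p = 0.972). With 2 arrays these fits measure the technical spread of repeated scans of a single RNA sample.

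The difference of the washing change between the series, tested as an interaction over 16 scans, was called for 0 members, beside 0.0% of all probe sets. At an unadjusted p under 0.05 there was 1 member with a higher and 0 with a lower change in the second series, beside 3.55% and 1.66%. This was IGFBP5 211958_at, whose change went from -1.94 (SE 0.44) to 0.60 (SE 0.42), a difference of 2.55 (SE 0.67, limma adjusted p = 0.954). Its signals were 50.9, 151, 12.1 and 11.3 in A1 to A4 and 90.3, 147, 30.2 and 27.4 in B1 to B4, and it exceeded the dark reference in 2 scans.

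Stringent washing before staining was compared through scans B1 (2 cycles) and A1 (0 cycles), 1 scan on each side and hence without a test. The median log2 ratio of B1 to A1 over all probe sets was -0.84. The 4 bright probe sets lay above it, by 1.67 for IGFBP4, 1.55 for IGFBP6, 0.88 for IGF2R and 0.26 for IGFBP5. They belong to deciles 9 and 10 of scan C1. For this ratio neither the values of probe sets of like brightness nor a share of all probe sets was taken. Whether it is particular to these members was thus not tested. The largest deficit was that of IGF1 241072_s_at with -4.27 relative to the median. Array and washing cannot be told apart here.

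The second labelling was compared within 9 pairs of scans of the same array and step, which differ by the second staining and by the cycles in between. Of the 24 members 0 passed the threshold in limma with the pair as a block, beside 0.294% of all probe sets called higher and 0.541% called lower. At an unadjusted p under 0.05 there were 1 member higher and 2 lower, beside 8.34% and 11.3%. Staining, further washing and the repeated scanning cannot be told apart in these pairs.

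IGFBP4 was lower in the second series in 9 of 9 pairs, the only 1 of 24 members, beside 2.2% of all probe sets. Higher in 9 of 9 pairs were 0 members, beside 1.72% on the scaled signal and 1.95% against the median. The log2 differences were -0.24, -0.27, -0.47 and -0.70 on array A, -0.44, -0.22, -0.05 and -0.07 on array B and -0.30 on array C. The mean was -0.31 (SE 0.11, limma adjusted p = 0.166), and over 19 alternatives the adjusted p was 0.0542 to 0.833, the highest with the array as the unit. Against the median of all probe sets in each pair, IGFBP4 was below it in 8 of the 9 pairs and above it in A5 against A1. By that measure 0 members were lower in 9 of 9 pairs, beside 1.72% of all probe sets.

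The other bright members moved less. IGFBP5 211959_at had a mean of -0.01 (SE 0.11, limma adjusted p = 0.982), with 7 pairs lower and 2 higher. IGFBP6 had -0.08 (SE 0.13, limma adjusted p = 0.750), and without array C, where the pair gave -0.77, the mean was 0.002. IGF2R 201393_s_at had -0.12 (SE 0.11, limma adjusted p = 0.582), with 7 pairs lower and 2 higher. At the first scan after staining, IGFBP5 211959_at differed between the series by -0.24 on array A, -0.05 on array B and 0.36 on array C.

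In 2 of 24 members the pairs of array A were all lower and those of arrays B and C all higher, beside 1.59% of all probe sets, and in 0 members the opposite held, beside 0.991%. IGFBP3 210095_s_at had -1.07, -0.50, -0.75 and -0.73 on array A, 0.08, 0.28, 0.64 and 0.70 on array B and 0.08 on array C. IGF1 209541_at had -0.62, -0.80, -2.70 and -0.58 on array A and between 2.26 and 4.09 on array B, with 3.24 on array C. Its signals in the first series were 4.21 on C1 and as low as 2.56 on B3, and it exceeded the dark reference in 0 scans. The arrays differ in the wash before staining and as arrays, and the part of either was not tested. This count was made after the values had been seen.

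**Figure D4:**
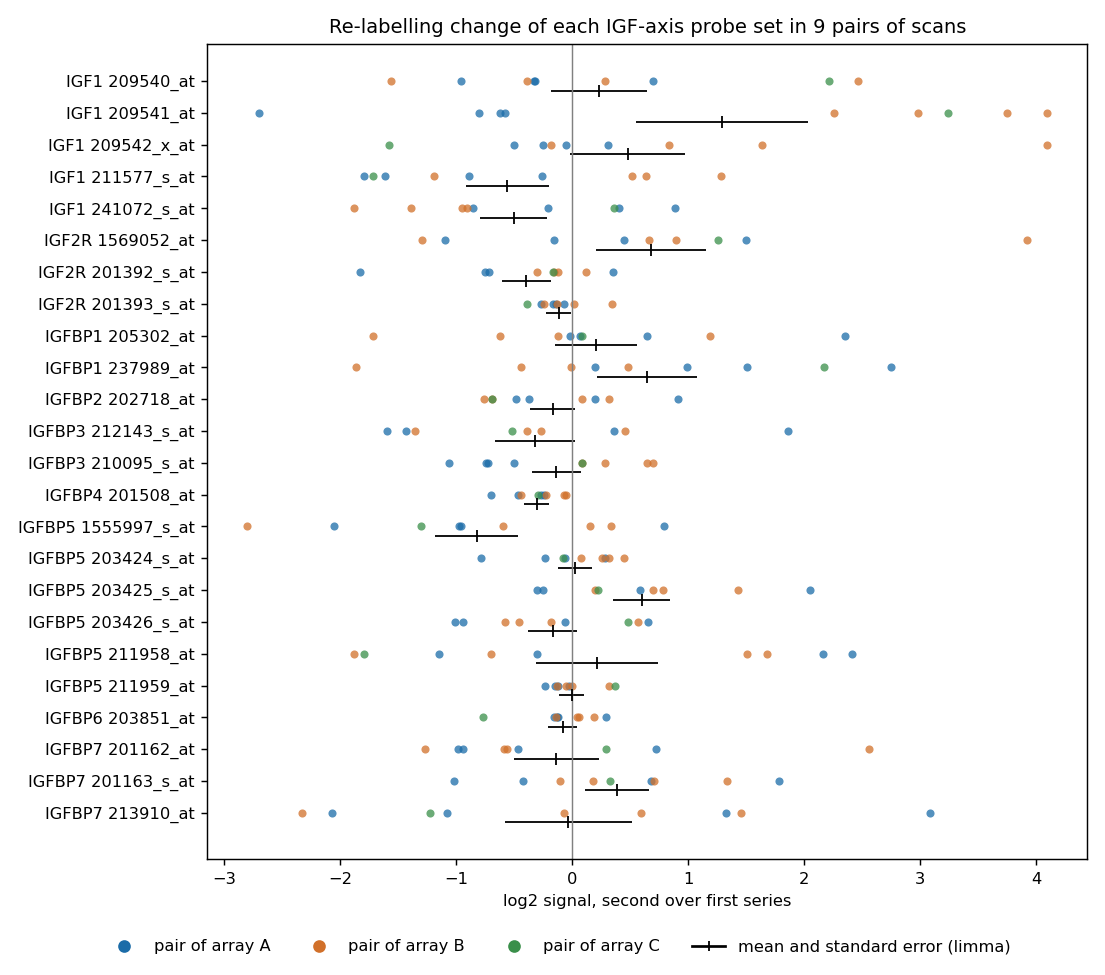
Log2 ratio of the second to the first series for each of the 24 probe sets in the 9 pairs of scans of the same array and step, coloured by array, with the limma mean and its standard error in black. IGFBP4 lies below 0 in 9 of 9 pairs (-0.05 to -0.70). IGFBP3 210095_s_at lies below 0 on array A and above 0 on arrays B and C.

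Genes of the surrounding pathway were taken from a list of receptors, adaptors, proteases and kinases of IGF signalling, of which 33 genes with 100 probe sets were analysed. By its brightest probe set on C1, a gene exceeded the dark reference in at least 15 scans in 21 cases and in no scan in 5. The receptor IGF1R (225330_at) ranged from 205 to 467 and did so in 18 scans. The adaptors IRS1, IRS2, SHC1 and GRB2 and the kinase AKT1 also did so in 18 scans, whereas the insulin receptor INSR did so in 7. The mRNA-binding proteins IGF2BP2 and IGF2BP3 did so in 18 scans, and IGF2BP1 in 0. Of the proteases of the binding proteins, PAPPA exceeded it in 0 scans, PAPPA2 in 15 and HTRA1 in 17. Of the inhibitors of the pappalysins, STC1 did so in 2 scans and STC2 in 18.

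The 100 probe sets of the pathway had 0 calls in the test of washing in the first series, 0 in the second and 0 for the difference between them. With a variance trend and robust moderation 1 of them was called higher in each series, beside 3.57% and 2.38% of all probe sets. For re-labelling 0 rose and 1 fell, beside 0.294% of all probe sets called higher and 0.541% called lower. The 1 that fell was that of TSC2 (215735_s_at), a brake on the kinase MTOR, with a log2 change of -1.76 (SE 0.30, limma adjusted p = 0.0382). It was lower in 9 of 9 pairs, beside 2.2% of all probe sets. It had signals of 57.2 to 165 in the first series and 15.1 to 131 in the second, ranges that overlap, and exceeded the dark reference in 5 scans. This call was lost without array A (limma adjusted p = 0.204), without array B (adjusted p = 0.165), without 7 of the 9 single pairs, without the block (adjusted p = 0.0615) and with the array as the unit (adjusted p = 0.777), while the change stayed between -1.97 and -1.35 over 19 alternatives. Among pathway probe sets in the brighter part of the array (mean log2 signal over its median), the largest changes in the washing test, none of which passed, were those of AKT2 203808_at (-2.44, limma adjusted p = 0.348), FOXO1 202723_s_at (-1.28), MTOR 202288_at (-1.17), AKT2 236664_at (-1.16) and FOXO1 202724_s_at (-0.98) in the first series. In the second they were AKT2 236664_at (-2.33, limma adjusted p = 0.329), INSR 213792_s_at (1.38), FOXO1 202724_s_at (-1.15), FOXO3 231548_at (-1.07) and PDPK1 221244_s_at (-0.95). For the difference between the series they were FOXO1 202723_s_at (1.71, limma adjusted p = 0.978), AKT2 203808_at (1.65), PAPPA2 214689_at (-1.39), FOXO3 231548_at (-1.19) and AKT2 236664_at (-1.16). A mean over the median of the array does not place a probe set above the dark reference. MTOR 202288_at exceeded it in 11 scans, FOXO1 202724_s_at in 8 and INSR 213792_s_at in 7. The other probe sets named for these tests lay below it in most scans, so their changes describe signals that do not stand out. For AKT2, FOXO3 and PDPK1 the brightest probe sets on C1 exceeded the dark reference in 18 scans. Their changes in the first series were 0.21 (225471_s_at), 0.03 (224891_at) and 0.14 (224986_s_at). In the second series they were 0.13, -0.05 and -0.16 in the same order.

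The probe sets whose pattern over the 18 scans came closest to that of each bright member were found by the root mean square difference of log2 signals, each profile taken relative to its own mean. For IGFBP6 these were SCCPDH (0.087), ECHDC1 (0.118) and SNRPA (0.118), where the profile of IGFBP6 itself had an SD of 0.33. For IGFBP4, with an SD of 0.36, they were LOX (0.115), SHMT2 (0.125) and GET3 (0.138). IGFBP5 211959_at, with an SD of 0.34, was closest to RCAN3 (0.129), SMARCA2 (0.134) and SHISA3 (0.142). IGF2R 201393_s_at, with an SD of 0.22, was closest to RABIF (0.137), EEF2K (0.142) and UBE2B (0.145). All profiles share the 18 scans and their scaling, and likeness of a pattern over scans of 1 RNA sample is likeness of a technical response.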

How the data were processed

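Processed data were available as MAS5 signals, 1 per probe set and scan. The authors had summarised the probe intensities with MAS5, whose version is not given in the sources used here, and scaled each scan to the same trimmed mean before they deposited the signal values. Probe sets were named through the platform annotation. It gave 1 symbol for 41097 of 54675 probe sets, several for 1801 and none for 11777, and 41043 of the gene identifiers were found in the RefSeq gene list, which changed 0 symbols. Members and gene lists were chosen with earlier results of these data known.

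Tests were run on log2 signals without offset or filter in limma 3.58.1 (R 4.3.3), with Benjamini-Hochberg adjustment over all 54675 probe sets and a threshold of 0.05. A run on simulated data used independent noise, unlike repeated scans of an array, so nothing is concluded from it here. For washing, 17 were compared with 0 additional cycles over 8 scans (arrays A and B), blocked by array, and the difference between the series was an interaction over 16 scans. Re-labelling used 9 pairs of array and step as a block, because both scans of a pair come from the same hybridization. All pairs of array A also share 1 hybridization, as do those of array B, so the 9 pairs are not independent replicates. Descriptive values were computed in Python 3.11.15 (numpy 2.4.6, pandas 2.3.3) and plotted with matplotlib 3.10.9. No 2 scans held identical values. All 18 values were given for members above the 95th percentile of the dark probe sets in at least 15 scans. Pathway genes were named when past a threshold or, where none passed, as the 5 largest changes among probe sets with a mean above the median of all. The 3 most alike probe sets were named for each bright member. Alternatives were centring, quantile normalization, an offset of 16, the brighter probe sets alone, limma's variance trend together with robust moderation, no block, a line in log10 cycles, the array as unit and leaving out arrays or pairs. The signals carry no counts, and precision is limited by 3 arrays and 1 RNA sample. As the scans of an array repeat the measurement of its only hybridization, p-values measure technical spread.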

Additional observations from a re-analysis of the deposited data

How the results depend on the processing

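The fits rest on few arrays, and the counts over all probe sets moved with the variance model and the filter. Over all probe sets 0 passed in each washing test and 457 for re-labelling. In the first series this became 705 with only the brighter probe sets, 2615 under a variance trend plus robust moderation, and 1830 with a line in log10 cycles. With the trend and robust moderation the second series had 1546, the difference between the series 327 and re-labelling 1834, and 1 member was called in each washing test, IGFBP5 211959_at. The re-labelling count was 967 with an offset of 16, 245 with the brighter probe sets, 0 with the array as the unit, and 0 (without array B) to 735 (without array C) when arrays or pairs were left out. Without array A it was 50. Without single pairs of arrays A or B it was as low as 29. Without the pairing of array and step as a block it was 123 in place of 457. The replicate block changed no call of a member, and the call of TSC2 was lost without it. With an offset of 16 re-labelling had 2 pathway probe sets called lower in place of 1.

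None of the members' values that changed sign had passed the threshold. Centred on the median, IGF2R 201393_s_at had washing changes of 0.22 and 0.27 in the 2 series, and IGFBP5 211959_at had -0.08 for the difference between the series and 0.040 for re-labelling. Quantile normalization gave 0.016 for IGF2R and -0.0645 for IGFBP6 in the second series, and the line in log10 cycles a slope of 0.20 for IGF2R. With the array as the unit IGFBP5 had 0.086 for re-labelling. Leaving out arrays or pairs gave ranges of -0.63 to 0.16 and -0.30 to 0.25 for washing of IGF2R, -0.25 to 0.74 for IGFBP4 in the first series and -0.46 to 0.37 for its difference between the series, -0.053 to 0.098 for re-labelling of IGFBP5 and -0.18 to 0.002 for that of IGFBP6. IGFBP4 beside probe sets of like brightness was at 0.61 by deciles of A1 in place of -0.18 by those of C1, and IGFBP5 211959_at at -1.07 in place of -0.60. Deciles of A1 use a scan that is itself part of the ratio of array A. The choice of the dark percentile, made after seeing the data, put 7 members above the 90th and 4 above the 95th percentile in at least 15 scans. The cause of these shifts was not tested.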
